A study of Homo sapiens with 6 samples.

Results

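The genes described here encode the machinery that brings proteins into the endoplasmic reticulum (ER) and carries them between the ER and the Golgi: the COPI and COPII coats, the translocon and its partners, signal peptidase, SNAREs of the SEC22 family, and cargo receptors. They were chosen by name, as 44 gene symbols, with earlier results of these data known. Each symbol matched exactly 1 of the 58735 rows of the deposited count table. All 44 passed the filter on low counts. RNA sequencing was performed on 6 libraries of Panc-1, a human cell line of epithelial type from a pancreatic cancer. In 3 libraries the Panc-1 cells had been kept for 72 h with cancer-associated fibroblasts (CAF) that overexpress PAI-1, and in the other 3 with CAF alone, whose columns are headed CAF-NC. All Panc-1 cells are labelled wild type, so that the overexpression lies in the fibroblast partner. The labels call the libraries biological replicates without saying whether they came from separate experiments, and p-values then measure the spread between these libraries. How Panc-1 was parted from the fibroblasts, and which promoter or vector drove PAI-1, no source used here gives. The text on RNA extraction names another cell line, Cal27, a squamous line, and a drug treatment with Stattic.

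Secretory and membrane proteins enter the ER through the SEC61 channel, in most cases while they are being made. Signal peptidase then removes their signal peptide. COPII vesicles carry cargo from the ER towards the Golgi, and COPI vesicles bring escaped ER proteins, receptors and membrane back. In the exocrine pancreas, a tissue that secretes in bulk, this route is highly developed, and many of its genes are known targets of the unfolded protein response, in which the factor XBP1 takes part.

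Library totals lay between 13992583 and 15880653 counts with CAF-PAI-1 and between 13628508 and 16006880 counts with CAF, and the 44 genes took up 0.631% to 0.654% of these totals with CAF-PAI-1 and 0.588% to 0.604% with CAF. CAF-PAI-1 replicate 2 stood apart from the other libraries of its group, with 3.78% of its counts from mitochondrially encoded genes, against 4.76% and 5.12% in CAF-PAI-1 replicates 3 and 1, so that counts of changed genes are also given without it. In the CAF libraries this share was 5.53% to 5.92%, so that it moved with the group, and its part in the results was not tested beyond leaving these genes out, which gave the same 21 and 2 member calls. The epithelial keratins KRT8 and KRT18 were at 1140 ± 75.3 and 751 ± 33.4 CPM with CAF-PAI-1 and at 1015 ± 31.6 and 581 ± 22.8 CPM with CAF (SD, n = 3 each), where CPM stands for counts brought to a common library size by the TMM method. EPCAM and CDH1 were low, at 8.10 ± 1.36 and 1.01 ± 0.33 CPM with CAF-PAI-1 and at 7.06 ± 0.46 and 1.67 ± 0.21 CPM with CAF. All 4 squamous markers stayed below 1 CPM. For this count and for the marker lists below, CPM was taken from library totals alone, without TMM scaling.

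A list of 12 fibroblast markers had 9 that stayed below 1 CPM throughout. Of POSTN, FAP, DCN, LUM, COL1A2 and both PDGF receptor genes no library held more than 4 counts each. The summed level of the list, by library totals alone, was 504 to 616 CPM with CAF-PAI-1 and 379 to 411 CPM with CAF, so that it moved with the group. Nearly all of it came from S100A4 and COL1A1, which rose by 0.69 and 0.47 on the log2 scale. Leukocyte and endothelial markers also stayed below 1 CPM. What part the fibroblast markers that moved have in any result was not tested.

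The secretory genes were higher with CAF-PAI-1 more often than lower, by small amounts. The list was chosen with earlier results of these data known, so that the shares below describe it and are no separate test. Of the 44, 21 rose (47.7%) and 2 fell (4.55%), while over all 14960 genes tested 17.2% rose and 15% fell and 32.2% were called in either direction (edgeR quasi-likelihood test, Benjamini-Hochberg adjusted p under 0.05). Their median log2 fold change was 0.17, against -0.0015 over all genes tested, and 39 of the 44 had a positive value. The groups did not overlap in 24 of the 44 genes (54.5%), where this held for 43.4% of all genes tested. No member changed as much as 1.5-fold: those that rose did so by 1.12-fold to 1.38-fold, and the median size of the log2 fold change was 0.30 for the called members and 0.39 for all called genes. Genes of the SEC61 translocon and its associated TRAP complex, the COPII genes SAR1A, SEC23B, SEC24A and SEC24D, and the cargo receptor TMED9 led the rises, and the SNARE gene SEC22C and the KDEL receptor gene KDELR1 fell. In bulk libraries, fewer cells of a type and less RNA per cell cannot be told apart. Without CAF-PAI-1 replicate 2, 21 rose and 2 fell, with 3 calls lost and 3 gained. Over all 15437 genes then tested 2446 rose and 2227 fell, which is 30.3% in either direction. When libraries were scaled by their totals alone, 13 rose and 2 fell, and over all genes 1839 rose and 3182 fell, where TMM scaling gave 2571 and 2239.

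**Figure D1:**
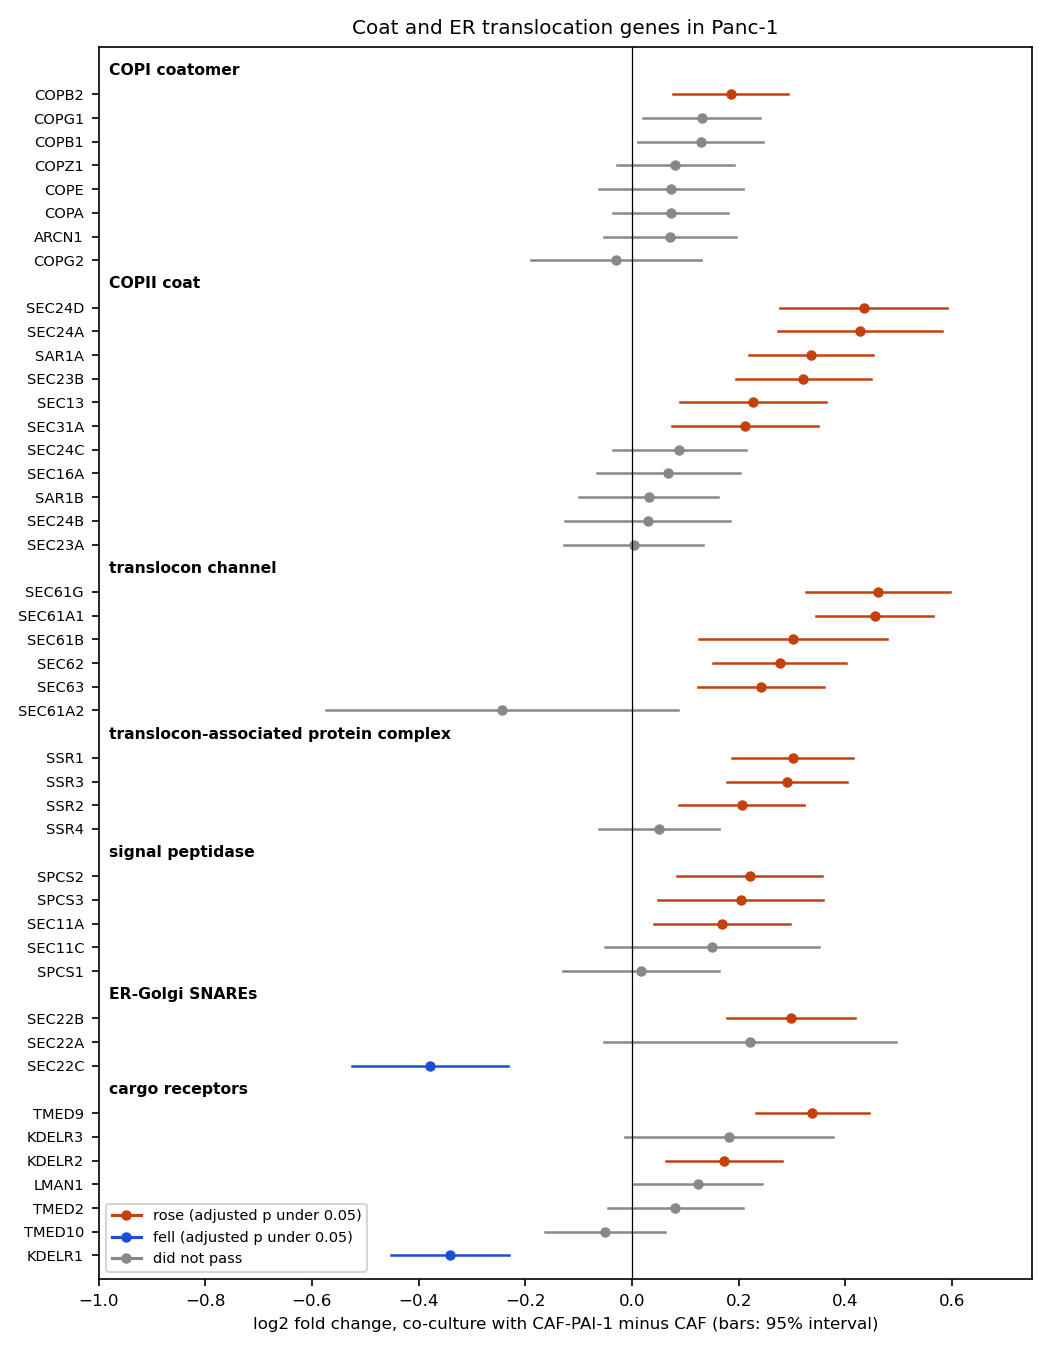
Log2 fold change of each of the 44 genes (x axis, co-culture with CAF-PAI-1 minus CAF), by complex, with its 95% interval from the edgeR fit over 3 libraries a group; red points rose, blue points fell and grey points did not pass an adjusted p of 0.05. All but 1 of the translocon channel genes lie to the right of 0, most COPI genes lie close to it, and SEC22C and KDELR1 are the only points that fell.

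The genes were well expressed. Levels between genes are compared per kilobase of annotated exon, as TMM-scaled CPM per kb, which assumes that all annotated exons of a gene are used. On this scale 31 of the 44 lay in the top 25% of the genes tested and 42 above the median. TMED9 was the most abundant, at 189 CPM per kb with CAF-PAI-1 and 150 CPM per kb with CAF, followed with CAF by KDELR2, KDELR1 and SEC61A1. SEC61A2 and SEC22A were the lowest, at 1.66 and 2.60 CPM per kb with CAF-PAI-1 and 1.97 and 2.22 CPM per kb with CAF. Within the COPI coatomer, which assembles from single copies of its subunits, levels ran with CAF-PAI-1 from 63.6 CPM per kb for COPG1 down to 21.4 for COPE, with COPG2, the alternative gamma subunit, at 8.69. With CAF the same 3 genes were at 58.1, 20.4 and 8.88 CPM per kb.

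**Figure D2:**
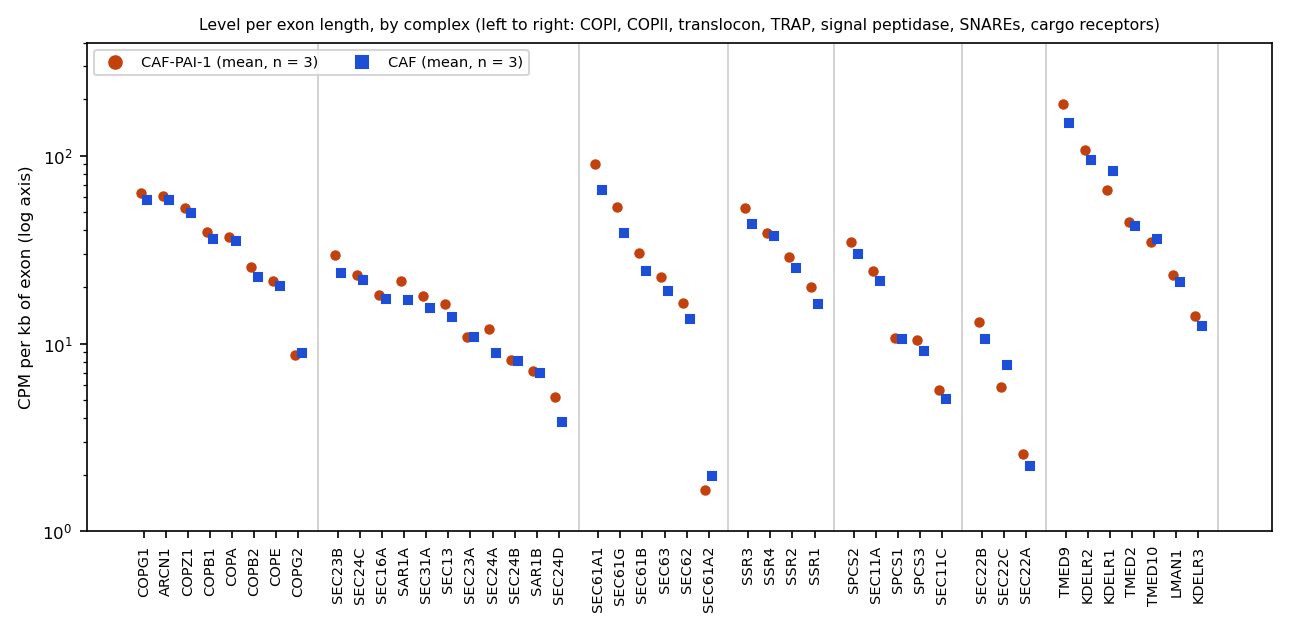
Mean TMM-scaled CPM per kb of exon (log axis) of each gene over 3 libraries with CAF-PAI-1 (circles) and 3 with CAF (squares), ordered within each complex by the level with CAF. Differences between genes of a complex are far larger than those between the groups, and SEC61A2, at 1.66 and 1.97 CPM per kb, is the lowest gene of all.

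Many of these genes share a short promoter motif, whether or not they changed. Promoter windows from RefSeq (GRCh38.p14, 250 bases before to 50 after an annotated start) were at hand for 40 of the 44 genes, in 54 windows, and not for TMED9, SPCS1, SEC24D and KDELR2. The core of the unfolded protein response element, TGACGTG on either strand, the sequence to which XBP1 and ATF6 are known to bind, was found in 13 of 40 genes (32.5%), against 3.23% of the 10392 tested genes with a window. Counted by window these shares were 27.8% of the members' windows, 2.41% of the windows of tested genes and 1.97% of all 35116 windows. It was found in 6 of the 18 genes with a window that rose and in 7 of the 22 others. Such a match is a run of letters, not a shown binding site. The longer ER stress elements ERSE (CCAAT, any 9 bases, CCACG) and ERSE-II (ATTGG, any base, CCACG) were found in no member window. They were found in 0.119% and 0.0924% of the windows of tested genes and in 0.0769% and 0.0541% of all windows. Their parts are common. CCACG, which overlaps most TGACGTG matches when read on the other strand, was found in 87% of member windows. It was found in 48% of the windows of tested genes and 38.1% of all windows. For CCAAT these shares were 37%, 34.2% and 34.6%.

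The matches are shown with up to 15 bases on each side, in the direction of the gene, with the motif in capitals. CACGTCA is TGACGTG on the other strand. The genes that rose come first.
SEC61A1 (chr3:128052421-128052457, plus strand): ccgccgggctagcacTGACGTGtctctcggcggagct
SEC24A (chr5:134648591-134648627, plus strand): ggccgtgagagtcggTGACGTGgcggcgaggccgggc
SSR3 (chr3:156554144-156554180, minus strand): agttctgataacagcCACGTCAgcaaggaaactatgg
SEC62 (chr3:169966776-169966812, plus strand): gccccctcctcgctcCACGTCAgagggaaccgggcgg
SEC13 (chr3:10321234-10321270, minus strand): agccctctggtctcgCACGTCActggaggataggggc
COPB2, first match (chr3:139389821-139389857, minus strand): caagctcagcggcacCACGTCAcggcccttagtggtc
COPB2, second match (chr3:139389628-139389664, minus strand): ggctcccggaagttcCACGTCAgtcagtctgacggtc
KDELR3 (chr22:38468036-38468072, plus strand): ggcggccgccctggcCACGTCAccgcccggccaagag
COPB1 (chr11:14499837-14499873, minus strand): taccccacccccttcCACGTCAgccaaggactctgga
COPE (chr19:18919370-18919406, minus strand): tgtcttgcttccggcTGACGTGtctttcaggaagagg
COPA (chr1:160343226-160343260, minus strand): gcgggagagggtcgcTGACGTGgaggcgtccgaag
SEC16A (chr9:136484716-136484739, minus strand): gattggccctggtgcCACGTCAgc
SSR4 (chrX:153794525-153794561, plus strand): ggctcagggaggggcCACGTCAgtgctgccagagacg
SEC23A (chr14:39103218-39103254, minus strand): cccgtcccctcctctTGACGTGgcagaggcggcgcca
Of the genes shown, SEC61A1 and SEC24A rose by 0.46 and 0.43 on the log2 scale. SEC23A, whose motif begins 4 bases before a RefSeq start and runs across it, had a log2 fold change of 0.0029. SSR4 had one of 0.05. Most of the sequences read CCACGTCA or its reverse, TGACGTGG.

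The SEC61 translocon, the channel through which chains cross the ER membrane, showed the largest rises. Of its 6 genes 5 rose (83.3%, against 17.2% of all genes tested) and none fell, with a median log2 fold change of 0.29. SEC61A1, the alpha subunit that forms the pore, was at 445, 424 and 398 CPM with CAF-PAI-1 and at 313, 310 and 301 CPM with CAF. SEC61G, the small gamma subunit, was at 91.9, 105 and 97.7 CPM with CAF-PAI-1 and at 68.4, 69.8 and 76.2 CPM with CAF. The groups did not overlap for either gene, and each CAF-PAI-1 library lay above every CAF library. SEC61A1 rose 1.37-fold (log2 fold change 0.46, SE 0.054, edgeR adjusted p = 3.21e-08) and SEC61G 1.38-fold (0.46, SE 0.066, adjusted p = 1.31e-06). These were also 2 of the 4 members called against a minimum change of 1.2-fold with edgeR's glmTreat, the others being SEC24A and SEC24D. At that threshold 10.8% of all genes tested were called in either direction. SEC61A1 (ENSG00000058262) spans positions 128051641 to 128071683 of chromosome 3 (GRCh38, plus strand), and 7.32% of its exon length is shared with RUVBL1 on the opposite strand.

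SEC61B, the beta subunit, rose by 0.30 (SE 0.087, adjusted p = 0.00714), to 35.9 ± 1.69 CPM with CAF-PAI-1, against 29.1 ± 2.95 CPM with CAF, and lost its call without CAF replicate 3 (0.22, adjusted p = 0.0792). SEC62 and SEC63, membrane partners of the channel in the passage of finished chains, rose by 0.28 (SE 0.061, adjusted p = 0.000576) and 0.24 (SE 0.058, adjusted p = 0.00133). SEC62 was at 133, 134 and 123 CPM with CAF-PAI-1 and 101, 115 and 106 CPM with CAF, without overlap. SEC61A2, the second alpha subunit gene, was the exception. It was at 7.38, 6.39 and 5.75 CPM with CAF-PAI-1 and 7.71, 6.61 and 8.85 CPM with CAF, so that the groups overlapped, and its log2 fold change of -0.24 (SE 0.16, adjusted p = 0.268) did not pass.

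The translocon-associated protein (TRAP) complex sits beside the channel and helps some signal peptides to engage it. Its genes moved the same way in 3 of 4 cases (75%, against 17.2% of all genes tested). SSR1, the alpha subunit, was at 234, 228 and 215 CPM with CAF-PAI-1 and 174, 185 and 190.4 CPM with CAF. SSR3, the gamma subunit, was at 247, 254 and 230.1 CPM with CAF-PAI-1 and 193, 203 and 202 CPM with CAF. Neither gene had groups that overlapped. SSR1 rose by 0.30 (SE 0.056, adjusted p = 6.42e-05), SSR3 by 0.29 (SE 0.055, adjusted p = 8.87e-05) and SSR2, the beta subunit, by 0.21 (SE 0.058, adjusted p = 0.00562). With scaling by totals alone the call of SSR2 was lost (0.14, adjusted p = 0.0602). SSR4, the delta subunit on the X chromosome, was at 178 ± 3.53 CPM with CAF-PAI-1 and 172 ± 6.70 CPM with CAF and did not pass (0.05, SE 0.055, adjusted p = 0.519, 95% interval -0.06 to 0.16).

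Signal peptidase genes had 3 of 5 members called higher (60%, against 17.2% of all genes tested). Each of these calls depended on single libraries and on the scaling. SPCS2, an accessory subunit, was at 103, 113 and 95.2 CPM with CAF-PAI-1 and 89.1, 83.2 and 94.8 CPM with CAF. Its groups were separated by less than 1 CPM. SEC11A, a catalytic subunit, was at 125, 149 and 144 CPM with CAF-PAI-1 and 121, 123 and 128 CPM with CAF, where CAF-PAI-1 replicate 1 lay within the range of the CAF libraries. The log2 fold changes were 0.22 for SPCS2 (SE 0.067, adjusted p = 0.0103), 0.17 for SEC11A (SE 0.062, adjusted p = 0.0359) and 0.20 for the accessory subunit SPCS3 (SE 0.076, adjusted p = 0.0374). Without CAF-PAI-1 replicate 2 none of the 5 was called, with adjusted p = 0.0534 for SPCS2, 0.136 for SEC11A and 0.0814 for SPCS3. With scaling by totals alone none was called either, and DESeq2 called 1, with adjusted p = 0.0684 for SEC11A and 0.0799 for SPCS3. SPCS2 also lost its call without CAF replicate 2 (0.0949). SEC11A lost it without CAF replicate 1 (0.118), CAF replicate 2 (0.108), CAF replicate 3 (0.0517) or CAF-PAI-1 replicate 3 (0.142), and SPCS3 without CAF replicate 1 (0.237), CAF replicate 3 (0.13) or CAF-PAI-1 replicate 1 (0.108). SEC11C, the other catalytic subunit, was at 24.4, 28.3 and 23.9 CPM with CAF-PAI-1 and 24.6, 23.8 and 20.4 CPM with CAF, with overlap. SEC11C and SPCS1 had log2 fold changes of 0.15 (SE 0.099) and 0.02 (SE 0.072) and did not pass. Reads of SPCS2 are uncertain because its pseudogene SPCS2P4 held 630 counts, 7.28% of the 8658 counts of SPCS2, and those of SPCS1 because 50.7% of its exon length is shared with NEK4 on the opposite strand.

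In the COPII coat, which buds vesicles from the ER, 6 of 11 genes rose (54.5%, against 17.2% of all genes tested) and none fell. The median log2 fold change was 0.21. The coat forms when the GTPase SAR1 recruits the inner layer of SEC23 and SEC24 and then the outer cage of SEC13 and SEC31, at sites marked by SEC16A. For SAR1, SEC23 and SEC24, which have several paralogs, only some members of each were called. SAR1A was at 147, 152 and 146 CPM with CAF-PAI-1 and 112, 119 and 121 CPM with CAF. SAR1B, its close paralog, was at 80.3, 78.4 and 74.9 CPM with CAF-PAI-1 and 73.7, 78.5 and 76.3 CPM with CAF. The groups were apart for SAR1A and overlapped for SAR1B. SAR1A rose by 0.34 (SE 0.057, adjusted p = 1.88e-05) and SAR1B had 0.03 (SE 0.064, adjusted p = 0.75, 95% interval -0.10 to 0.16).

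SEC23B, which activates the GTPase and holds SEC24, was at 140.3, 120 and 129.9 CPM with CAF-PAI-1 and 101, 108 and 103 CPM with CAF. SEC23A was at 99.98, 92.8 and 97.2 CPM with CAF-PAI-1 and 94.1, 92.0 and 104 CPM with CAF. SEC23B rose by 0.32 (SE 0.062, adjusted p = 0.00012), without overlap, whereas SEC23A had 0.0029 (SE 0.064, adjusted p = 0.979, 95% interval -0.13 to 0.13).

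The 4 SEC24 proteins select cargo and fall into a pair of related subfamilies, SEC24A with SEC24B and SEC24C with SEC24D. SEC24A was at 97.5, 75.2 and 84.6 CPM with CAF-PAI-1 and 60.3, 66.2 and 65.2 CPM with CAF. SEC24D was at 56.1, 48.1 and 50.3 CPM with CAF-PAI-1 and 39.9, 35.8 and 38.5 CPM with CAF. Every CAF-PAI-1 library lay above every CAF library for both genes, with CAF-PAI-1 replicate 2 the lowest of its group. SEC24A rose 1.34-fold (log2 fold change 0.43, SE 0.075, adjusted p = 4.00e-05) and SEC24D 1.35-fold (0.43, SE 0.077, adjusted p = 3.65e-05). SEC24B was at 44.9, 40.3 and 43.3 CPM with CAF-PAI-1 and 40.0, 42.3 and 43.8 CPM with CAF. SEC24C was at 136, 120 and 118 CPM with CAF-PAI-1 and 119, 114 and 118 CPM with CAF. The groups overlapped in both. Neither passed, with 0.03 (SE 0.076, 95% interval -0.13 to 0.18) for SEC24B and 0.09 (SE 0.061, 95% interval -0.04 to 0.21) for SEC24C.

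In the outer cage both genes were called, each with a call that depended on single libraries and on the scaling. With scaling by totals alone the adjusted p was 0.0647 for SEC13 and 0.0914 for SEC31A. SEC13, which is also a subunit of the nuclear pore, rose by 0.23 (SE 0.067, adjusted p = 0.00859) but not without CAF replicate 3 (0.16, adjusted p = 0.118). SEC31A rose by 0.21 (SE 0.067, adjusted p = 0.0155), to 172, 141 and 177 CPM with CAF-PAI-1, against 138, 138 and 148 CPM with CAF. CAF-PAI-1 replicate 2 lay inside the CAF range of SEC31A, and the call was lost without CAF replicate 1 (adjusted p = 0.0767), CAF replicate 2 (0.0736), CAF-PAI-1 replicate 1 (0.068) or CAF-PAI-1 replicate 3 (0.138). SEC31A also shares 5.27% of its exon length with THAP9-AS1 on the same strand. SEC16A had 0.07 (SE 0.065, adjusted p = 0.459). Annotated exons of SAR1B and SEC24A overlap by 385 bases on opposite strands, and no source used here says whether strand was used in counting, so that reads of overlapping genes cannot be told apart.

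**Figure D3:**
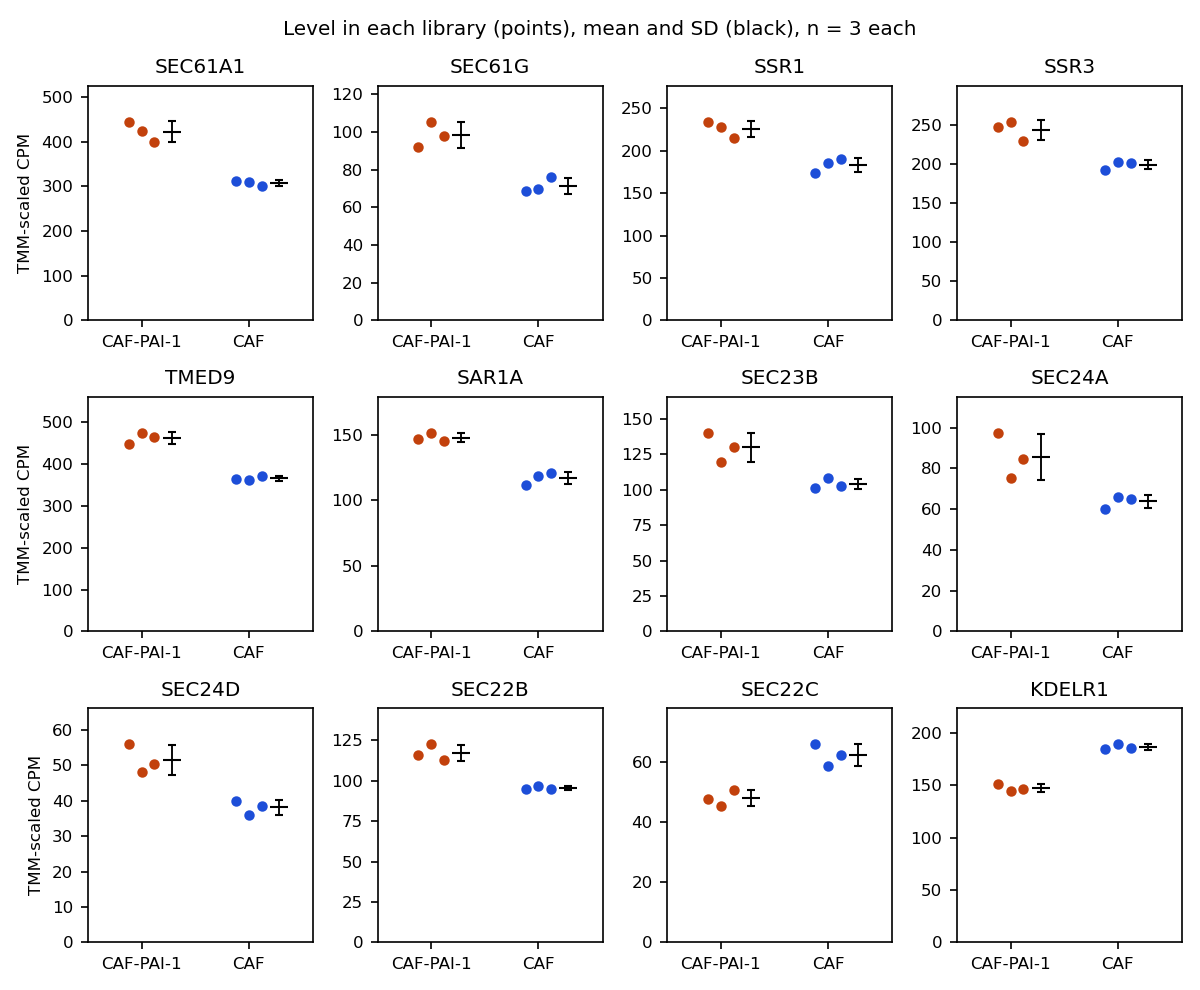
TMM-scaled CPM of 12 members in each library (points; CAF-PAI-1 left, CAF right) with the group mean and SD over 3 libraries (black); the y axes start at 0. All 12 are called members whose groups do not overlap, so that the separation comes with the choice of genes. Over all 44 members it held in 24, and over all genes tested in 43.4%. SEC22C and KDELR1 are lower with CAF-PAI-1 and the other 10 higher.

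The COPI coatomer, which coats vesicles that return from the Golgi to the ER, had 1 of 8 genes called. COPB2 rose and none fell, a share of 12.5% near the 17.2% of all genes tested, and the median log2 fold change was 0.08. The groups did not overlap in 5 of the 8, where this held for 43.4% of all genes tested. Among these 5 were COPE and COPZ1, with edgeR adjusted p of 0.436 and 0.267. COPB2, the beta-prime subunit that reads retrieval signals on cargo, was at 209, 208 and 213 CPM with CAF-PAI-1 and 185, 184 and 185 CPM with CAF. The groups were well apart, and COPB2 rose 1.14-fold (0.19, SE 0.053, adjusted p = 0.00681), but not when libraries were scaled by their totals alone (0.12, adjusted p = 0.0839). COPG1, a gamma subunit, was at 290.3, 268 and 286 CPM with CAF-PAI-1 and 247, 259 and 266 CPM with CAF and did not pass (0.13, SE 0.054, adjusted p = 0.0633). It was called without CAF-PAI-1 replicate 2 (0.16, adjusted p = 0.0097), as was the delta subunit gene ARCN1 (0.14, adjusted p = 0.0284), whose value over all libraries was 0.07 (SE 0.061, adjusted p = 0.403). In ARCN1 the CAF-PAI-1 libraries spread from 227 to 279.9 CPM around the CAF range of 232 to 247 CPM.

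The other coatomer genes had log2 fold changes of 0.07 for COPA, 0.13 for COPB1, 0.07 for COPE, 0.08 for COPZ1 and -0.03 for COPG2, each with an adjusted p above 0.05. Their 95% intervals reached no higher than 0.25, the upper end for COPB1. COPG2 was at 36.1, 35.1 and 36.7 CPM with CAF-PAI-1 and 35.8, 38.2 and 36.2 CPM with CAF, with overlap. Summed over its 8 genes, the coatomer took up 1586, 1485 and 1534 CPM with CAF-PAI-1 and 1390, 1450 and 1445 CPM with CAF. The 6 translocon channel genes together took up 904, 904 and 849.7 CPM with CAF-PAI-1 and 673, 695 and 692 CPM with CAF. With TMM scaling both sums were apart between the groups. With scaling by totals alone no coatomer gene was called and their median log2 fold change was 0.01. The translocon channel then still had 5 genes higher, with a median of 0.22.

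The SEC22 genes encode SNAREs or SNARE-like proteins of the ER and Golgi, and they moved in opposite directions. SEC22B, the SNARE that works in fusion between ER and Golgi membranes, was at 116, 123 and 113 CPM with CAF-PAI-1 and 94.7, 96.9 and 94.9 CPM with CAF. SEC22C was at 47.8, 45.5 and 50.7 CPM with CAF-PAI-1 and 66.1, 58.8 and 62.4 CPM with CAF. The groups were apart for both, in opposite order. SEC22B rose by 0.30 (SE 0.059, adjusted p = 0.000165), while SEC22C fell to 0.769 of its level with CAF (log2 fold change -0.38, SE 0.072, adjusted p = 8.95e-05). SEC22A was low, at 12.5, 14.2 and 9.96 CPM with CAF-PAI-1 and 10.4, 10.3 and 10.6 CPM with CAF. Its groups overlapped, and it did not pass (0.22, SE 0.13). SEC22A shares 10.4% of its exon length with PDIA5 on the same strand. Over all libraries PDIA5 held 3008 counts and SEC22A 1015. SEC22C (ENSG00000093183) spans positions 42547969 to 42601080 of chromosome 3 (GRCh38, minus strand) and shares exon sequence with NKTR and SS18L2 on the opposite strand.

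Among cargo receptors, 2 of 7 genes rose (28.6%) and 1 fell (14.3%), where 17.2% of all genes tested rose and 15% fell. With scaling by totals alone 1 rose and 1 fell. TMED9, a p24 family protein that cycles in COPI and COPII vesicles, was at 448, 475 and 464 CPM with CAF-PAI-1 and 363, 362 and 372 CPM with CAF. It rose 1.26-fold (0.34, SE 0.052, adjusted p = 3.72e-06), without overlap. The p24 partners TMED2 and TMED10, with which TMED9 is known to form complexes, had 0.08 (SE 0.062, adjusted p = 0.343) and -0.05 (SE 0.055, adjusted p = 0.53). LMAN1, a lectin that carries glycoproteins out of the ER, had 0.12 (SE 0.059, adjusted p = 0.109) and was called without CAF-PAI-1 replicate 2 (0.14, adjusted p = 0.0414).

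KDEL receptors retrieve ER chaperones from the Golgi, and their genes did not move together. KDELR1 was at 151, 144 and 146 CPM with CAF-PAI-1 and 184, 189.8 and 186 CPM with CAF. KDELR2 was at 432, 439 and 412 CPM with CAF-PAI-1 and 362, 395 and 382 CPM with CAF. The groups were apart for both, with KDELR1 lower and KDELR2 higher with CAF-PAI-1. KDELR1 fell to 0.789 of its level with CAF (log2 fold change -0.34, SE 0.054, adjusted p = 7.12e-06). KDELR2 rose by 0.17 (SE 0.053, adjusted p = 0.0126), but not without CAF replicate 1 (0.14, adjusted p = 0.0865) or with scaling by totals alone (0.11, adjusted p = 0.129), and it shares 9.42% of its exon length with DAGLB on the same strand. KDELR3 was at 28.97, 25.6 and 26.8 CPM with CAF-PAI-1 and 24.5, 21.2 and 26.1 CPM with CAF and did not pass (0.18, SE 0.095, adjusted p = 0.149). KDELR1 (ENSG00000105438) spans positions 48382570 to 48391553 of chromosome 19 (GRCh38, minus strand).

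Paralogs were also compared inside each library, as the ratio of their counts, which does not depend on the scaling between libraries. In all 9 pairs the gene with the higher fold change was put on top, and the pairs were set up with the single-gene results known. Neither the direction nor the separation of the groups is therefore a separate result. How often ratios of other gene pairs separate the groups was not counted. The ratio of KDELR2 to KDELR1 was 2.85, 3.04 and 2.81 with CAF-PAI-1 and 1.96, 2.08 and 2.05 with CAF. For SEC22B over SEC22C it was 2.43, 2.70 and 2.23 with CAF-PAI-1 and 1.43, 1.65 and 1.52 with CAF. For SEC61A1 over SEC61A2 it was 60.2, 66.3 and 69.2 with CAF-PAI-1 and 40.6, 46.8 and 34.0 with CAF. These 3 pairs had the largest differences in log2 ratio, at 0.51, 0.68 and 0.70. The last of them rests on low counts, since SEC61A2 held 88 to 127 counts a library. SEC61A2 also shares 9.88% of its exon length with NUDT5 on the opposite strand. SAR1A over SAR1B averaged 1.90 ± 0.065 with CAF-PAI-1 and 1.54 ± 0.040 with CAF (SD, n = 3 each). SEC23B over SEC23A averaged 1.34 ± 0.058 with CAF-PAI-1 and 1.08 ± 0.091 with CAF. SEC24A over SEC24B averaged 2.00 ± 0.16 with CAF-PAI-1 and 1.52 ± 0.040 with CAF. SEC24D over SEC24C averaged 0.414 ± 0.012 with CAF-PAI-1 and 0.326 ± 0.010 with CAF, and COPG1 over COPG2 7.82 ± 0.20 with CAF-PAI-1 and 7.003 ± 0.31 with CAF. The groups did not overlap in 8 of the 9 pairs. Each of these had p = 0.1 in a two-sided exact permutation test, the smallest that 3 libraries against 3 allow, and 0.1125 adjusted over the 9 pairs. In SEC11A over SEC11C the ratios were 5.47 ± 0.49 with CAF-PAI-1 and 5.45 ± 0.70 with CAF (exact permutation p = 0.9).

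**Figure D4:**
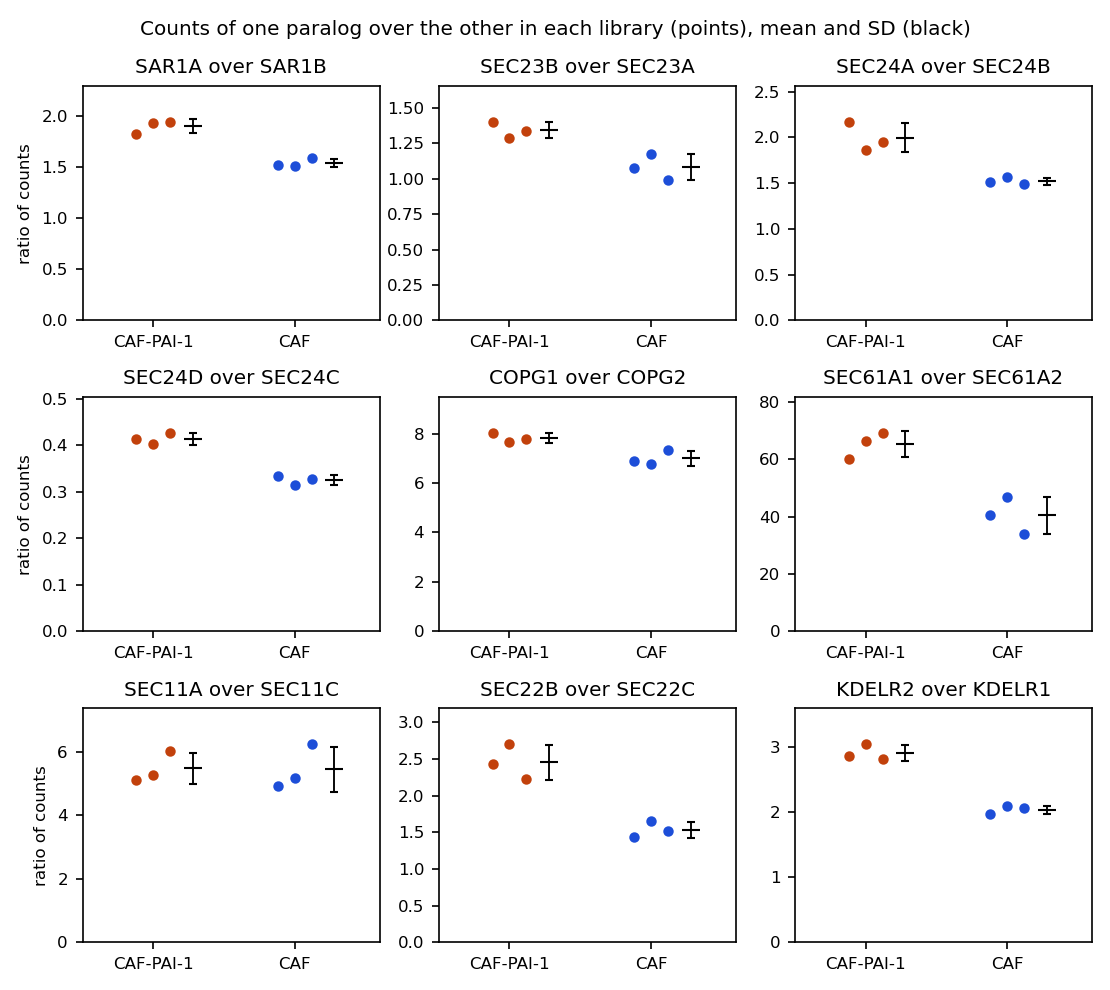
Counts of one paralog divided by those of the other in each library (points; CAF-PAI-1 left, CAF right), with mean and SD over 3 libraries (black); the y axes start at 0. The groups are apart in 8 of 9 pairs and overlap in SEC11A over SEC11C. The pairs were set up with the single-gene results known.

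Other genes of the route were read from 9 lists with 115 tested genes. Of these 32 rose (27.8%) and 8 fell (6.96%), with a median log2 fold change of 0.06, and 31 rose and 7 fell of 116 without CAF-PAI-1 replicate 2. With scaling by totals alone 23 rose and 14 fell, and 4 fell without CAF replicate 1 or without CAF replicate 2. Counts of single lists are to be read beside the 17.2% of all genes tested that rose and the 15% that fell. The signal recognition particle and its receptor, which bring ribosomes to the translocon, had 5 of 8 genes higher and 1 lower. SRPRB, the membrane subunit of the receptor, rose by 0.70 (SE 0.080, adjusted p = 1.67e-08), to 60.2 CPM with CAF-PAI-1, against 37.1 CPM with CAF, and SRP72 by 0.27 (SE 0.066), while SRP14 fell (-0.17, SE 0.057, adjusted p = 0.0243). No gene of this list was lower without CAF replicate 1, CAF replicate 2 or CAF-PAI-1 replicate 1. Translocon-associated and membrane insertion factors had 5 of 16 higher and 1 lower, CAMLG, a receptor for tail-anchored proteins (-0.29, SE 0.094), whose call was lost without CAF replicate 2, CAF replicate 3 or CAF-PAI-1 replicate 1. Among the 5 was EMC1, at an edgeR adjusted p of 0.04996. With RLE scaling, DESeq2, limma-voom or scaling by totals alone 4 of this list were higher. SERP1, a small stress-induced translocon partner, rose by 0.57 (SE 0.057, adjusted p = 9.26e-10) and TRAM2 by 0.32 (SE 0.064). Oligosaccharyltransferase, which adds N-glycans next to the channel, had 4 of 11 genes higher and none lower, with OSTC at 0.34 and the catalytic subunit STT3A at 0.23. Among the 4 was STT3B, at an edgeR adjusted p of 0.0494. Of this list 3 were higher with RLE scaling or DESeq2, 4 with limma-voom and 2 with scaling by totals alone.

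Among COPI regulators and cofactors 2 of 10 rose (20%, near the share of all genes) and none fell, namely ARF4, a GTPase of the ARF family, by 0.41 (SE 0.056, adjusted p = 5.65e-07) and ARFGAP1, which ends the GTPase cycle of the coat, by 0.27. COPII accessory factors had 2 of 9 higher (22.2%, likewise near it) and 1 lower, with SEC23IP at 0.27 and SEC31B, the less abundant SEC31 gene at 9.78 CPM with CAF-PAI-1 and 13.5 CPM with CAF, at -0.46 (adjusted p = 0.00804). Of this list 1 was higher without CAF replicate 1, CAF replicate 3 or CAF-PAI-1 replicate 1 and with scaling by totals alone, and none was lower without CAF replicate 1. Other cargo receptors rose in 7 of 17 and fell in none, and those of smallest p were TMED3 at 0.31 and BCAP31 at 0.22. Without CAF replicate 1 it was 4 of 17, and with scaling by totals alone 3 rose and 1 fell. SNAREs and tethers between ER and Golgi rose in 4 of 22 (18.2%, near the share of all genes) and fell in none, with GOSR2 and BET1L, both Golgi SNAREs, at 0.44 each.

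The clathrin and adaptor coats, which act beyond the ER, had 1 of 15 genes higher (AP1S1, 0.27) and 4 lower. AP2B1, of the endocytic adaptor, had the smallest p (-0.28, SE 0.054, adjusted p = 0.00015). Without CAF-PAI-1 replicate 2 this list had 2 higher and 2 lower, without CAF replicate 1 or CAF replicate 2 it had 1 higher and 2 lower, and without CAF-PAI-1 replicate 1 it had 3 higher and 4 lower. Transcription factors known to act on secretory genes had 2 of 7 higher and 1 lower. XBP1, which is known to bind the TGACGTG core, rose by 0.91 (SE 0.065, adjusted p = 3.41e-13), to 109 CPM with CAF-PAI-1, against 58.1 CPM with CAF. The activity of XBP1 was not measured, and whether its rise has a part in any change of the members was not tested. CREB3 rose by 0.47 (SE 0.072, adjusted p = 3.47e-06), while ATF6B fell (-0.26, SE 0.057) and ATF6, at 68.0 CPM with CAF-PAI-1 and 64.0 CPM with CAF, did not pass (0.09, SE 0.069).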

How the data were processed

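The authors deposited 1 table of whole-number counts per gene for 6 poly(A)-selected libraries. BWA, Bowtie2 and RSEM, with build hg19, are listed in the submitters' processing notes, without versions or roles, and no source used here says how the whole counts arose. The identifiers are those of GENCODE release 29 (GRCh38), the source of the gene coordinates and exon lengths. Nor is it stated how reads that match a paralog, a pseudogene or an overlapping gene were assigned. From the counts, edgeR 4.0.16 in R 4.3.3 was run after filterByExpr (a minimum count of 10 and a minimum total of 15), with TMM scaling, robust quasi-likelihood tests, no covariates and Benjamini-Hochberg adjustment over 14960 genes. In these libraries 3 counts correspond to 0.187 to 0.22 CPM, and libraries of a group differed beyond sampling noise (chi-square per degree of freedom 2.58 to 9.51). Alternatives were other scalings and filters, DESeq2 1.42.0, limma-voom (limma 3.58.1), glmTreat, a replicate block, mitochondrially encoded genes left out, and each library left out in turn. The members, lists and the rule for named genes (every member, with the smallest p of each list) were chosen with earlier results of these data known. Paralog ratios, list counts under the alternatives and the motif share among tested genes were added after seeing the data. Motif searches read RefSeq windows of GRCh38.p14. The level of the overexpressed gene is not reported here.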

Additional observations from a re-analysis of the deposited data

How the results depend on the processing

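Under 15 alternatives, none of the 23 called members changed sign. Both counts of members depended on the settings as follows. Scaling by library totals alone left 13 higher and 2 lower, with the median log2 fold change of all genes at -0.07. Against a minimum change of 1.2-fold (glmTreat), 4 of the 44 members were higher and 0 lower. Over all 14960 genes tested, 828 were then higher and 783 lower. These 1611 genes were 10.8% of those tested, where 4810 changed without a minimum. DESeq2 gave 19 higher and 2 lower, and limma-voom 21 and 2, with 27.8% and 31.7% of all genes tested changed. Leaving out each library in turn gave 17 to 21 members higher, 2 lower in each case, and 3942 to 4673 genes changed (25.9% to 30.3%).

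Members that were not called and lay near 0 changed sign in places. SEC23A had -0.0012 with RLE scaling, -0.064 with library totals alone, -0.0030 with a mean of at least 1 CPM, -0.0013 with DESeq2, and -0.0301 to 0.056 with 1 library left out. With library totals alone SAR1B had -0.036, SEC24B -0.037, SSR4 -0.015 and SPCS1 -0.049. With 1 library left out, COPG2 ranged over -0.048 to 0.00072, ARCN1 over -0.0077 to 0.14, SEC16A over -0.0102 to 0.14, SEC24B over -0.0084 to 0.067 and SPCS1 over -0.027 to 0.070.

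No source used here says whether replicate numbers pair the libraries. Correlations of the deviations of same-numbered libraries from their group means were 0.0023 to 0.012. For libraries of unlike number they were -0.0103 to 0.0047. Values this small do not settle whether the libraries were paired. With a replicate block, 22 members were higher and 2 lower and 5069 genes changed, the added member being COPG1 (0.13, adjusted p = 0.0356). Small changes are limited by depth and by 3 libraries a group, so that a member that did not pass is not shown to be equal between the groups.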
